A study of Rattus norvegicus with 25 samples.

Results

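The cornified envelope genes described here are 10 genes chosen by name for their part in the protein shell that replaces the plasma membrane of a terminally differentiated keratinocyte. They are Lor, Ivl, Flg, Tgm1, Tgm3, Evpl, Ppl, Cnfn, Sprr1a and Cdsn. Of these, 8 had a row among the 30547 genes of the table analysed, each from 1 transcript, and all 8 passed the filter on low values. Flg and Cdsn had no row and were not analysed here. The libraries came from the gingiva of 25 male wild type Sprague-Dawley rats, 5 in each of 5 groups, and the labels give the age as 6 weeks whereas the study's methods give 8 weeks. Experimental periodontitis (EP) was induced with silk thread tied around both upper first molars and painted with the periodontal bacterium Porphyromonas gingivalis. The Cur/ZNP gel, ZNP gel and Cur gel rats had EP and received methylcellulose hydrogel with curcumin and zinc oxide nanoparticles at 1 mg/mL each, with zinc oxide nanoparticles at 2 mg/mL, or with curcumin at 2 mg/mL. Each dose was 200 µL into the periodontal pocket, given weekly for 4 weeks. The EP rats had periodontitis without a drug gel, and it is not stated whether they received drug-free hydrogel. The sham rats had no periodontitis and received hydrogel.

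The cornified envelope is built beneath the membrane of the outermost keratinocytes of skin and of keratinized oral epithelium such as the gingiva. Envoplakin and periplakin form a first scaffold, involucrin is attached to it, and loricrin and small proline-rich proteins are then cross-linked on by transglutaminases until the shell is insoluble. Corneodesmosin and filaggrin belong to the same outer layers, corneodesmosin in the junctions between dead cells and filaggrin in the keratin bundles inside them.

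Lor, Ivl and Sprr1a lie together on chromosome 2 in the epidermal differentiation complex, a cluster of genes for envelope precursors. In the build of the deposited table, Rnor_6.0, all 3 are on the minus strand, Lor at chr2:191984773-191986170, Sprr1a at chr2:192669143-192671059 and Ivl at chr2:192761538-192763577. The other 5 are dispersed, with Tgm1 at chr15:34378148-34392066, Tgm3 at chr3:122544788-122580905, Evpl at chr10:105100336-105116916, Ppl at chr10:10644572-10690223 and Cnfn at chr1:82234032-82236179. The 250 bases before the start of the 3 clustered members are shown because the calls of these neighbours differed below. Lor and Ivl passed the test in each comparison with sham and Sprr1a in none. The difference between these genes, and any part of the sequences in it, was not tested. The sequences are from RefSeq (GRCr8), 5′ to 3′ on the gene's strand, and capitals mark TGANTCA, the site of AP-1 factors, and TATAAA, the TATA box.
Lor (chr2:180256573-180256822, minus strand): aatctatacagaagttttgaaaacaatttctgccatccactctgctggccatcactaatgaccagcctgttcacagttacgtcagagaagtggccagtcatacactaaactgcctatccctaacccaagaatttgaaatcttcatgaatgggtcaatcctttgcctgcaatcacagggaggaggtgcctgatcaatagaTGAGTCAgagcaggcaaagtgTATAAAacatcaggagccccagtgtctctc
Ivl (chr2:180846579-180846828, minus strand): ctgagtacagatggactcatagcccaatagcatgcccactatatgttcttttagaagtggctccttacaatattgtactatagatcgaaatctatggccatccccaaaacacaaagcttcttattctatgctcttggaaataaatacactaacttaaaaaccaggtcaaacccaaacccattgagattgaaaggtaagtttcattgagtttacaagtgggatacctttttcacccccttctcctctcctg
Sprr1a (chr2:180752626-180752875, minus strand): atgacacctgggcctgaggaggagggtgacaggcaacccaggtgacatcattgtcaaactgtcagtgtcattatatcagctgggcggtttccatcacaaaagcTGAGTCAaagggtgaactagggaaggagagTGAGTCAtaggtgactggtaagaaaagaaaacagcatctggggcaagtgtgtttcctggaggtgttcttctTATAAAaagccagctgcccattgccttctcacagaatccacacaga

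RefSeq windows were available for 9 of the 10 listed genes, all but Evpl. Searched on both strands, TGANTCA was found in 2 of these 9 windows, against 6.34% of all 33469 windows of the same length. Lor held it at 51 bases before the start, and Sprr1a at 147 and at 117 bases. TATAAA was found in 4 of the 9, against 12.9% of all windows, and lay 30 bases before the start of Lor, 46 before Sprr1a and 37 before Tgm3. Flg, whose level was not analysed here, held matches farther off, at 155 and 91 bases. The Ivl window held neither. The GRHL motif AACCNGTT was in 0 of the 9 and in 1.76% of all windows, and the short KLF motif CACCC was in 7 of the 9 and in 49.2% of all. These are matches of letters in a window and were not set against binding data.

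The libraries held 50690789 to 81791804 reads, with a median of 62227570. In 3 of them, sham 4, EP 3 and EP 4, genes of nasal glands took 16.8% to 22.2% of all reads, against at most 0.107% in each of the other 22. Sham 4 was also the lowest of the 25 libraries in each of the 8 members, so calls against sham that its removal changed are also given without it. Levels below are normalized counts, that is, reads divided by 1 size factor per library. They compare libraries for a gene and not genes with each other, since the table held no transcript lengths. In whole gingiva, fewer keratinocytes and less RNA per keratinocyte cannot be told apart.

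Lor encodes loricrin, the most abundant protein of the mature epidermal envelope. In Cur/ZNP gel libraries 1 to 5 its normalized counts were 53798, 21287, 44665, 32128 and 73308. In ZNP gel libraries they were 30668, 43134, 29297, 54498 and 71342, and in Cur gel libraries 23577, 43339, 20815, 21075 and 50708. No library of the 3 gel groups was below 20815. The EP libraries had 43219, 18718, 11864, 10654 and 65028, against 6048, 25158, 5535, 1555 and 11509 in the sham libraries. EP 3 and EP 4, both rich in nasal gland reads, were the lowest of their group, and sham 2 overlapped with every group except ZNP gel. A gene was called changed at an adjusted p under 0.05, with limma on the log2 scale and Benjamini-Hochberg adjustment over 16092 genes. Lor was higher in EP than in sham by 1.76 on the log2 scale (SE 0.58, n = 5 each, adjusted p = 0.0217 with limma), which is 3.38-fold with a 95% interval of 1.46 to 7.81. Against the same sham libraries it was 6.03-fold higher with Cur/ZNP gel (log2 2.59, SE 0.58, limma adjusted p = 0.00177), 6.31-fold with ZNP gel (log2 2.66, SE 0.58, limma adjusted p = 0.00246) and 4.32-fold with Cur gel (log2 2.11, SE 0.58, limma adjusted p = 0.00728). Without sham 4 the EP difference was 1.22 with an adjusted p of 0.0725 from limma, whereas the gel differences of 2.06 with Cur/ZNP gel, 2.12 with ZNP gel and 1.58 with Cur gel kept their call. The EP call was also lost without EP 1 or EP 5 and with the EP and sham groups fitted alone, at adjusted p-values of 0.0598, 0.0684 and 0.110 from limma.

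Ivl encodes involucrin, an early precursor laid down along the membrane. It was the least counted of the 8 members. Its normalized counts were 66.1, 88.2, 223.8, 135.8 and 166.7 in Cur/ZNP gel libraries. They were 99.0, 137.5, 83.1, 273.5 and 295.9 in ZNP gel libraries and 61.6, 185.3, 64.7, 126.5 and 200.4 in Cur gel libraries. All ZNP gel libraries were above the highest sham library. EP libraries had 125.2, 84.5, 81.7, 11.7 and 134.1, against 35.9, 70.2, 7.9, 0 and 32.4 in sham libraries. EP 4 fell among the sham libraries and the other 4 EP libraries were above all of them. Ivl was higher in EP than in sham by 2.19 on the log2 scale (SE 0.85, n = 5 each, adjusted p = 0.0472 with limma), a 4.56-fold difference with a 95% interval of 1.34 to 15.5. It was 8.31-fold higher with Cur/ZNP gel (log2 3.05, limma adjusted p = 0.00767), 10.4-fold with ZNP gel (log2 3.38, limma adjusted p = 0.00577) and 7.60-fold with Cur gel (log2 2.93, limma adjusted p = 0.0102). These folds were taken after adding 1 to each value, and the size of the EP difference depended on this, falling to 1.41 on the log2 scale after adding 10. Without sham 4, the library with no Ivl read, the EP difference was 1.21, with an adjusted p of 0.154 from limma. The gel differences were then smaller too, 4.22-fold with Cur/ZNP gel (log2 2.08, limma adjusted p = 0.0193), 5.28-fold with ZNP gel (log2 2.40, limma adjusted p = 0.0119) and 3.86-fold with Cur gel (log2 1.95, limma adjusted p = 0.0268), and kept their calls. The EP call of Ivl was also lost with edgeR (1.56, adjusted p = 0.0890), under either other filter, with the EP and sham groups fitted alone, and without sham 3, EP 1, EP 2, EP 3 or EP 5, at adjusted p-values of 0.0504 to 0.194 from limma. With each gel group and sham fitted alone the Ivl calls were lost too, at adjusted p-values of 0.0601 to 0.0734 from limma.

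Ppl and Evpl encode periplakin and envoplakin, which pair to form the scaffold on which the envelope is built. The calls of the partners differed. Ppl normalized counts were 54715, 20273, 46715, 41892 and 48860 in Cur/ZNP gel libraries. They were 29948, 29773, 34517, 36209 and 31626 in ZNP gel libraries and 28390, 41091, 19790, 18471 and 38658 in Cur gel libraries. The ZNP gel values lay within a narrow range above every sham library. EP libraries had 42142, 23577, 13590, 14831 and 46933, against 12811, 24730, 19246, 3332 and 17067 in sham libraries. EP 2, EP 3 and EP 4 lay within the sham range. Ppl was higher than in sham with Cur/ZNP gel by 1.65 (SE 0.44, limma adjusted p = 0.00544), with ZNP gel by 1.33 (SE 0.44, limma adjusted p = 0.0242) and with Cur gel by 1.11 (SE 0.44, limma adjusted p = 0.0486), on the log2 scale. In EP against sham its difference of 0.95 (SE 0.44) had an adjusted p of 0.0901 from limma. Without sham 4 the Cur/ZNP gel difference was 1.17 and kept its call, whereas those of ZNP gel and Cur gel were 0.85 and 0.63, with adjusted p-values of 0.0741 and 0.169 from limma. The Cur gel call was also lost with edgeR (0.93, adjusted p = 0.0767) and, counting this, under 11 of its 20 alternatives.

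Evpl passed the test in none of the 4 comparisons with sham. Its normalized counts were 22636, 9483, 18839, 16426 and 14768 in Cur/ZNP gel libraries. They were 15950, 15034, 17441, 14820 and 11015 in ZNP gel libraries and 19083, 13125, 8199, 12389 and 14558 in Cur gel libraries. EP libraries and the 3 gel groups covered much the same range. The EP values were 16886, 11612, 6553, 8371 and 20170, against 15198, 24963, 32740, 2124 and 18151 in sham libraries. Sham 4 was the lowest of all libraries, and sham 3 and sham 2 were the highest. The log2 difference of EP over sham was -0.23 (SE 0.50, limma adjusted p = 0.741), with a 95% interval of -1.26 to 0.80. Without sham 4 it was -0.90, and Evpl was then called lower in EP (limma adjusted p = 0.0284). Without the 3 libraries rich in nasal gland reads it was called lower with Cur gel (-0.75, limma adjusted p = 0.0368) and not in EP (-0.46, limma adjusted p = 0.263).

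Within a library, the ratio of Ppl to Evpl does not depend on depth or on the size factor. It was 2.14 to 3.31 in Cur/ZNP gel libraries, 1.88 to 2.87 in ZNP gel libraries, 1.49 to 3.13 in Cur gel libraries and 1.77 to 2.50 in EP libraries, against 0.588 to 1.57 in sham libraries. EP, ZNP gel and Cur/ZNP gel libraries thus had no overlap with sham libraries, and 3 of 5 Cur gel libraries were above the highest sham library. The highest sham ratio was that of sham 4, so the separation did not rest on its low level. These ratios were chosen with the levels known and are given as a description, with no test.

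**Figure D1:**
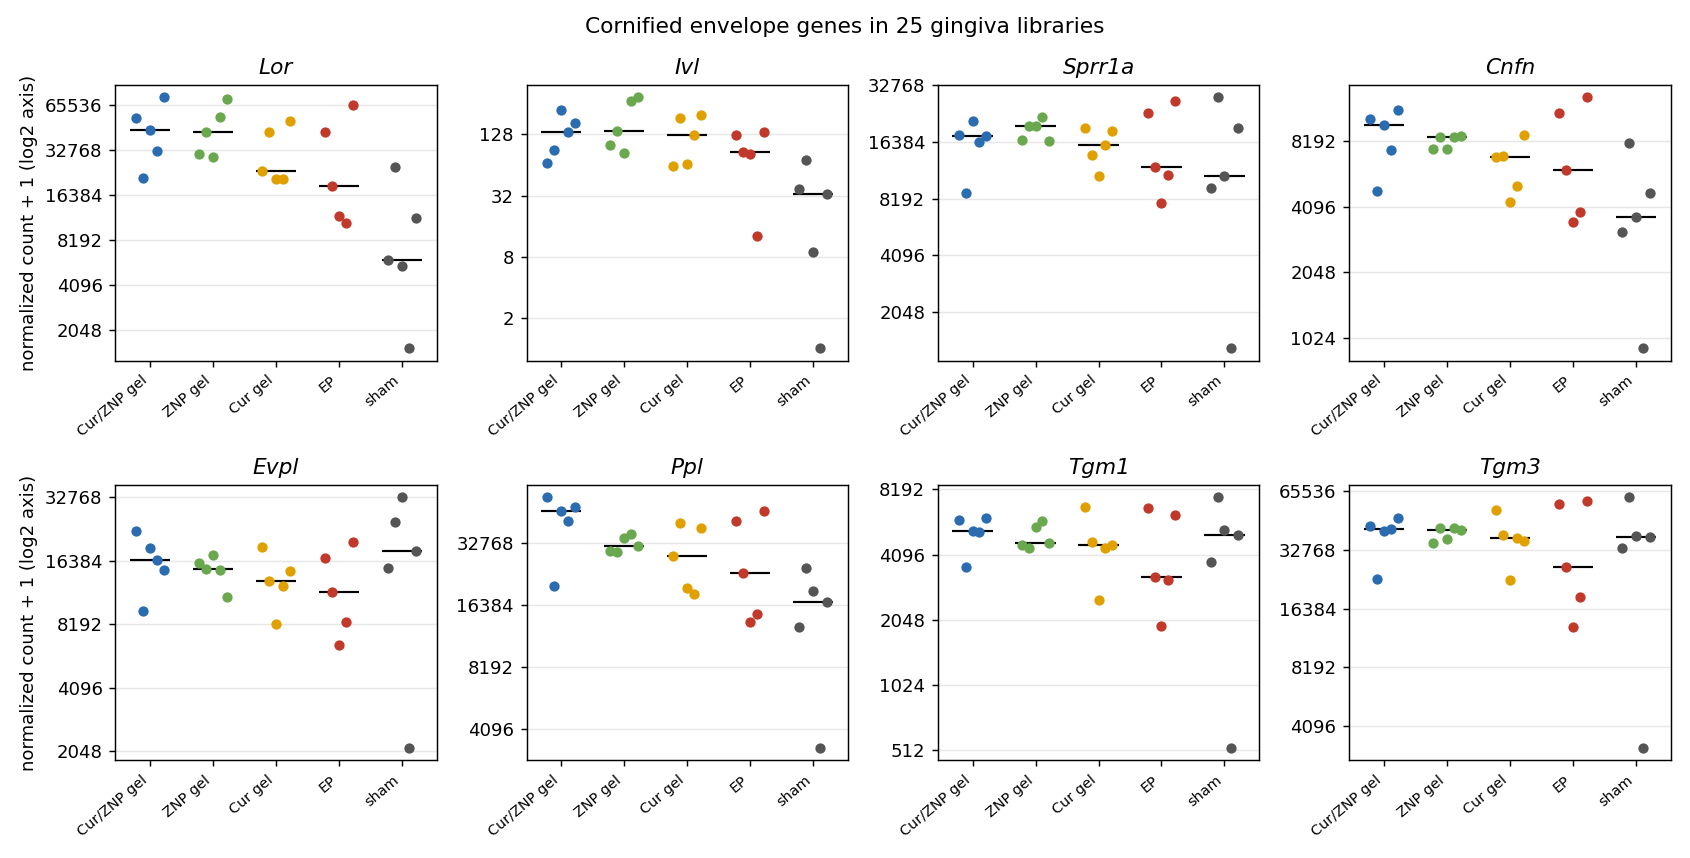
Normalized count plus 1 of the 8 measured cornified envelope genes on a log2 axis, 1 point per rat in each of 5 groups, with a line at the group median. Sham 4 is the lowest point of every panel, and Lor, Ivl, Ppl, Cnfn and Sprr1a have their lowest group medians in sham.

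Cnfn encodes cornifelin, a small protein incorporated into the envelope. Its normalized counts were 10398, 4838, 9754, 7441 and 11357 in Cur/ZNP gel libraries. They were 7533, 8540, 7577, 8564 and 8693 in ZNP gel libraries and 6957, 7032, 4292, 5084 and 8785 in Cur gel libraries. The ZNP gel values spanned the narrowest range of the 5 groups. EP libraries had 11018, 6020, 3478, 3869 and 13031, against 3149, 8041, 3686, 916.7 and 4744 in sham libraries. EP 1 and EP 5 were above every other library except Cur/ZNP gel 5, which was above EP 1, and sham 2 was within the range of each of the other groups. Cnfn was higher than in sham with Cur/ZNP gel by 1.33 (SE 0.43, limma adjusted p = 0.0174) and with ZNP gel by 1.30 (SE 0.43, limma adjusted p = 0.0251), on the log2 scale. The differences of 0.97 in EP and 0.91 with Cur gel had adjusted p-values of 0.0788 and 0.0982 from limma. Without sham 4 neither gel call held, with adjusted p-values of 0.0576 for Cur/ZNP gel and 0.0786 for ZNP gel from limma, and with edgeR the ZNP gel difference had an adjusted p of 0.0649.

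Tgm1 and Tgm3 encode transglutaminases 1 and 3, the enzymes that cross-link the envelope, transglutaminase 1 at the membrane and transglutaminase 3 in the cytosol. Neither passed the test in any comparison with sham. Tgm1 ranged over 3584 to 6030 in Cur/ZNP gel, 4405 to 5844 in ZNP gel, 2511 to 6768 in Cur gel and 1911 to 6716 in EP libraries, against 522.4 to 7540 in sham libraries. The log2 difference of EP over sham was 0.20 for Tgm1 (SE 0.49, 95% interval -0.81 to 1.22) and 0.24 for Tgm3 (SE 0.55, 95% interval -0.90 to 1.38). For both enzymes the direction turned in all 4 comparisons when sham 4 was left out. The ratio of Tgm1 to Tgm3 differed little among the 25 libraries, from 0.104 to 0.166. Each enzyme alone ranged more than 10-fold, but only through sham 4. Without that library Tgm1 ran from 1911 to 7540 and Tgm3 from 13194 to 61072. Sprr1a encodes a small proline-rich protein that bridges other envelope proteins and passed the test in none of the 4 comparisons either. It ranged over 8739 to 21078 in Cur/ZNP gel, 16566 to 22146 in ZNP gel, 10773 to 19338 in Cur gel and 7760 to 27124 in EP libraries, against 1315 to 28226 in sham libraries. Its log2 difference of EP over sham was 0.63 (SE 0.53, 95% interval -0.47 to 1.73), and -0.0793 without sham 4. Without sham 2 it was called higher with ZNP gel (1.41, limma adjusted p = 0.0357).

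Counted together, 2 of the 8 members passed the test between EP and sham, both higher, in a comparison in which 37.6% of all genes tested were called, 18.8% higher and 18.8% lower. Against sham, 4 of 8 were higher with Cur/ZNP gel, where 39.7% of all genes were called, 20.2% higher and 19.5% lower. With ZNP gel 4 of 8 were higher, at 32.1% called, 16.7% higher and 15.4% lower. With Cur gel 3 of 8 were higher, at 38.0% called, 18.9% higher and 19.1% lower. Of the members, 0 were called lower in any of these 4. The median log2 difference of the 8 was 0.79 in EP, against 0.01 for all genes tested, and 1.04 with Cur/ZNP gel, 1.16 with ZNP gel and 0.81 with Cur gel, against -0.06, -0.01 and -0.03 for all genes. With 8 genes, 1 call more or less changes the share of members a lot. Whether 2 to 4 calls differ from the share called over all genes was not tested. The 4 comparisons share their 5 sham libraries, and the larger number of calls with a gel was not itself a test of gel against EP. Without the 3 libraries rich in nasal gland reads, 4 members were higher in EP, namely Lor, Ivl, Ppl and Cnfn. Without sham 4 alone, 0 were higher and 1, Evpl, was lower in EP, and 3 were higher with Cur/ZNP gel and 2 each with ZNP gel and Cur gel. The share of all genes called without these libraries is not given here, so these changes in count cannot be set against it.

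**Figure D2:**
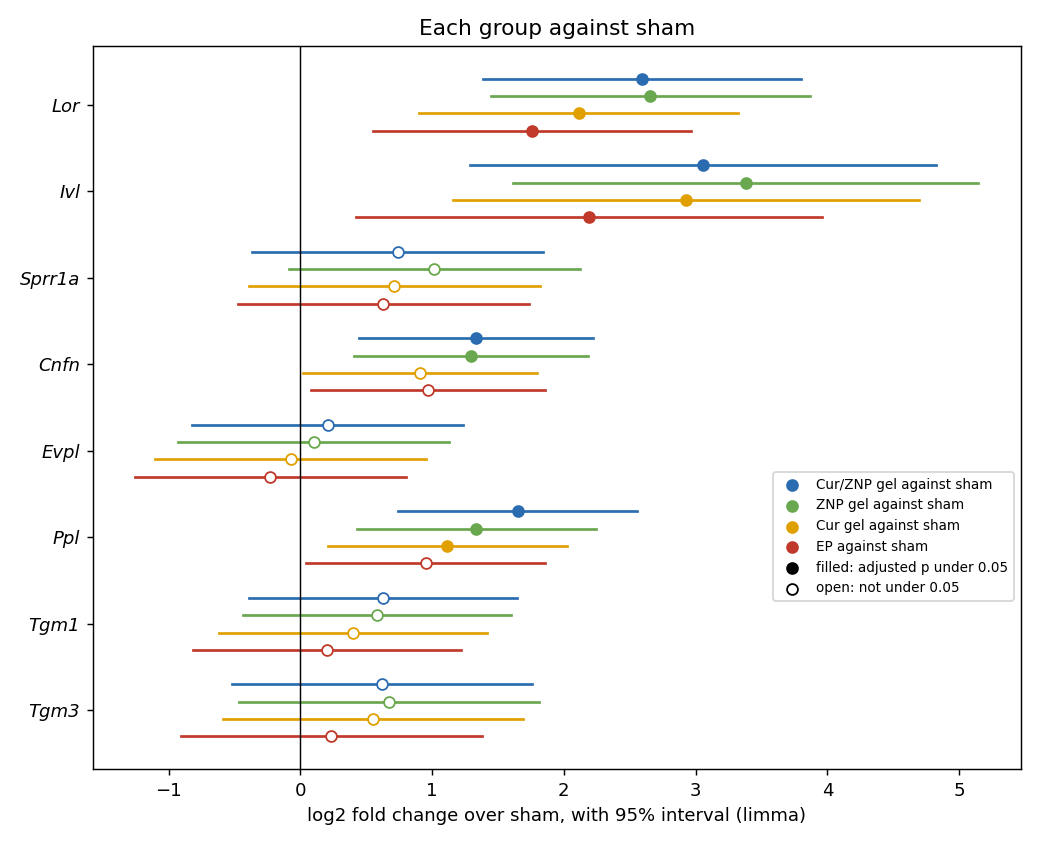
Log2 fold change over sham of each measured member, with its 95% interval from limma, for Cur/ZNP gel, ZNP gel, Cur gel and EP, and filled points where the adjusted p was under 0.05. Lor and Ivl are filled in all 4 comparisons, Ppl in 3, Cnfn in 2 and the other members in none.

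None of the members was called between a gel group and EP or between gel groups. In these 6 comparisons limma, edgeR and DESeq2 each called 0 of the 8, and 0 had an unadjusted p under 0.05 with limma. Over all genes, limma called 1 gene in ZNP gel against EP (0.00621%), where 481 had an unadjusted p under 0.05, and 0 in the other 5 (0%), where 183 to 2054 did. Over all genes edgeR called 0 in each and DESeq2 5 to 205. Lor averaged 45037 ± 20043 with Cur/ZNP gel and 29896 ± 23622 in EP (SD, n = 5 each), a 1.78-fold difference with a 95% interval of 0.772 to 4.12. With ZNP gel it averaged 45788 ± 17582, 1.87-fold that of EP with an interval of 0.808 to 4.31. The corresponding interval for Cur gel over EP was 0.553 to 2.95. The intervals of Ivl were wider, 0.536 to 6.20 for Cur/ZNP gel, 0.671 to 7.77 for ZNP gel and 0.490 to 5.67 for Cur gel over EP. Each of these intervals includes 1, so a rise or a fall within its bounds remains possible. The lowest unadjusted p among members was that of Ppl in Cur/ZNP gel over EP, 0.124 with limma, at a fold of 1.62 (95% interval 0.866 to 3.04).

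The members varied together from library to library. Over the 25 libraries, which each share 1 size factor across genes, Pearson's r of the log2 values was 0.982 between Tgm1 and Tgm3, 0.966 between Ppl and Cnfn and 0.949 between Lor and Cnfn. It was lower between Evpl and Lor, at 0.498, and between Evpl and Ivl, at 0.463. With the group means taken out, Tgm1 and Tgm3 had 0.982 and Evpl and Lor 0.688. Sham 4, the lowest of the 25 libraries in each of the 8 members, is in all correlations given here. They were not computed without it, so its weight in them is not known. Among 13810 other genes, the 8 whose log2 level was most like the mean standardized level of the members over the same 25 libraries were Alox12b (r = 0.985), Abca12 (0.985), Crybg2 (0.977), Gsdma (0.976), Klk10 (0.976), Klk13 (0.976), Dmkn (0.973) and Cysrt1 (0.969). Alox12b encodes the lipoxygenase that prepares ceramides for the lipid coat of the envelope, and Abca12 the transporter that loads lipids into lamellar granules. Neither was called in any comparison with sham, their lowest adjusted p-values from limma being 0.0511 for Alox12b and 0.0812 for Abca12, both with Cur/ZNP gel. Gsdma, for gasdermin A, was called higher with Cur/ZNP gel (1.82, limma adjusted p = 0.0149) and with ZNP gel (1.635, limma adjusted p = 0.0321), in ZNP gel not without sham 4 (limma adjusted p = 0.0828). Of the 8 genes, Dmkn was the other one called, with Cur/ZNP gel.

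The level of the envelope genes was also set against keratinocyte layers. Some of the basal keratinocyte markers were lower than in sham where Lor and Ivl were higher. Of all genes tested, limma called 18.8% lower than in sham in EP, 19.5% with Cur/ZNP gel, 15.4% with ZNP gel and 19.1% with Cur gel. Whether the counts of basal markers differ from these shares was not tested. Of 8 basal markers tested, 4 were lower in EP than in sham and 0 higher, with a median log2 difference of -1.13 over the list. These were Krt5, the keratin of dividing basal cells (-1.68, SE 0.56, limma adjusted p = 0.0230), Lamb3, a laminin chain of the basement membrane (-1.50, SE 0.35, limma adjusted p = 0.00260), Tp63, the transcription factor of stratified epithelial progenitors (-1.29, SE 0.41, limma adjusted p = 0.0162), and Itga6, an integrin of hemidesmosomes (-0.70, SE 0.22, limma adjusted p = 0.0170). With Cur/ZNP gel 4 were lower, with ZNP gel 2 and with Cur gel 3, counts that depended on single rats and on the fit. With any 1 rat left out they were 1 to 6, 0 to 6 and 1 to 6, each 6 without sham 4, and with each gel group and sham fitted alone 1, 0 and 0. The summed level of the list was 128692 to 349995 in EP libraries, against 110498 to 1699527 in sham libraries. Relative to Krt5 plus Krt14 in the same library, every member except Ivl was higher in each EP and gel library than in each sham library, and Ivl was so in all gel libraries and in 4 of 5 EP libraries. For Tgm3, which did not pass the test on its own level, this ratio was 0.126 to 0.220 in EP libraries, against 0.0263 to 0.0881 in sham libraries. Krt5 and Krt14 had their highest group medians in sham, at 343584 and 349872 normalized counts, against 72507 and 77334 in EP. A higher ratio can thus come from the lower denominator and is not by itself a higher level of the member. These ratios are a description, with no test. The number of basal markers called lower in EP was 1 without sham 3, 7 without sham 4 and 3 to 5 without any other rat, 2 with the EP and sham groups fitted alone, and 6 with edgeR and with DESeq2.

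**Figure D3:**
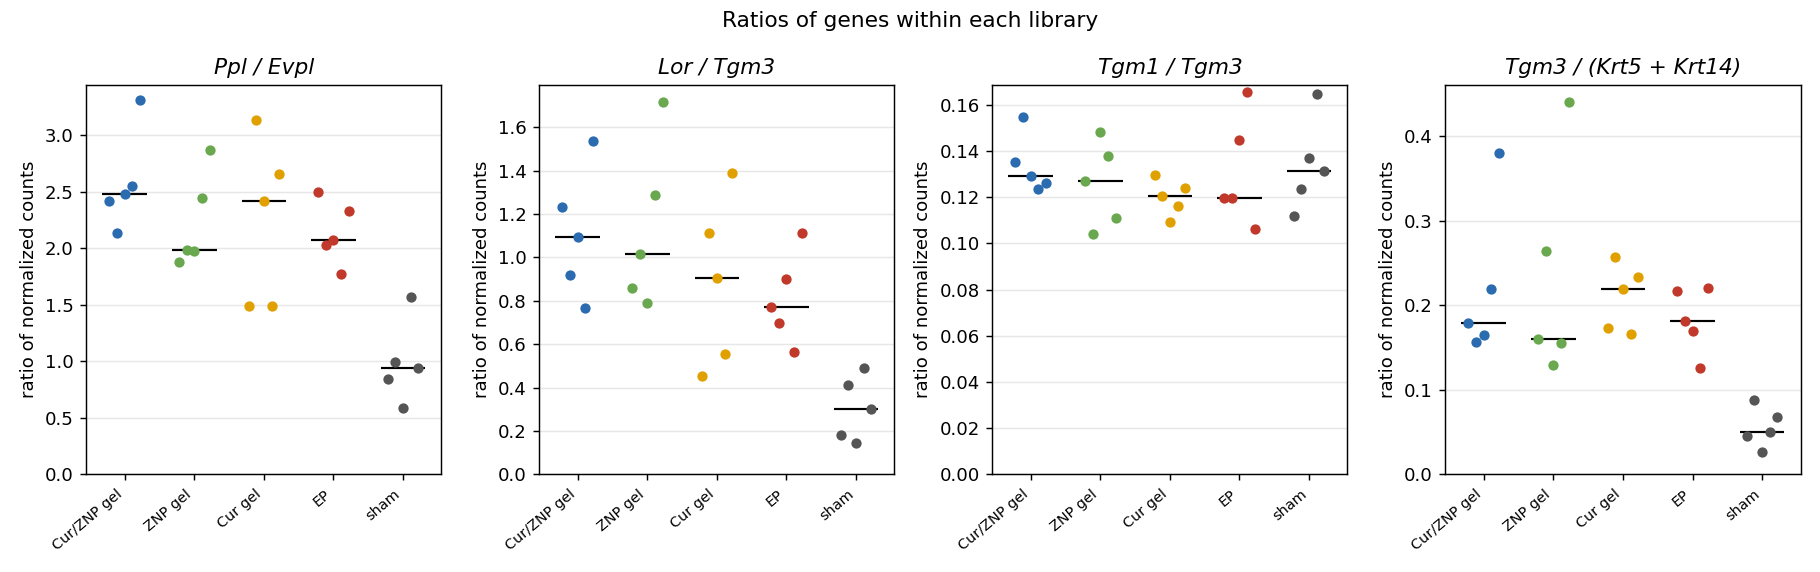
Ratios of normalized counts within each library for 4 gene pairs or sums, 1 point per rat in each of 5 groups with a line at the median, on linear axes from 0. Ppl over Evpl, Lor over Tgm3 and Tgm3 over Krt5 plus Krt14 have their lowest medians in sham, whereas Tgm1 over Tgm3 has about the same range in all groups.

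Markers of other cell types differed in the same comparisons. Of 6 skeletal muscle genes, limma called 6 higher than in sham with Cur/ZNP gel, 4 with ZNP gel, 0 with Cur gel and 6 in EP, and without sham 4 it called 3, 1, 0 and 1. With Cur gel, edgeR called 4 of them higher and DESeq2 6, and 0 had an unadjusted p under 0.05 with limma. All 4 erythrocyte genes tested were higher in each of the 4 comparisons, with and without sham 4. All 6 nerve genes were lower in each of the 4, and without sham 4 the numbers were 2 with Cur/ZNP gel, 6 with ZNP gel, 4 with Cur gel and 5 in EP. With Cur/ZNP gel edgeR called 0 nerve genes lower and DESeq2 1. Of 5 fibroblast genes 4 were higher with Cur/ZNP gel and 1 in each of the other 3 comparisons, the EP call being lost without sham 4. The summed nerve level was 78.9 to 205 in EP libraries, against 480 to 125582 in sham libraries, and the summed muscle level 360992 to 1922567 in EP libraries, against 22910 to 360430 in sham libraries. The erythrocyte sum was 12650 to 27333 in EP libraries, against 2750 to 7025 in sham libraries. Of 7 nasal gland genes tested, limma, edgeR and DESeq2 called 0 in EP against sham, and 0 had an unadjusted p under 0.05, although the nasal gland sum ranged from 1301 to 21685727 in EP libraries, against 1577 to 27695853 in sham libraries. Without sham 4, limma called 3 of them higher in EP. Against sham, limma called 0 of the 7 with each gel, whereas edgeR called 7 lower with Cur/ZNP gel, 6 with ZNP gel and 7 with Cur gel. DESeq2 called 6 lower with each gel. Of the nasal gland list, Vom1r1 was at 0 in all libraries. Of 5 salivary gland genes limma called 0 in EP, 1 had an unadjusted p under 0.05, and edgeR and DESeq2 each called 1 higher. With the gels, limma called 1 salivary gland gene higher with ZNP gel, 1 with Cur gel and 0 with Cur/ZNP gel. The salivary gland sum was 32635 to 9095741 in EP libraries, against 2293 to 2256065 in sham libraries. The part of these differences in the results on the envelope genes was not tested.

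Most of the other envelope precursors tested were higher in EP. Of 12 genes tested among 15 in the table, 8 were called higher in EP and 0 lower, with a median log2 difference over sham of 1.98. The list was chosen with earlier results of these data known, and a gene passed the filter if it reached 2 CPM, counts scaled to library size, in a single library. Hrnr, which encodes the filaggrin-like protein hornerin, differed by 4.195 (SE 1.11, limma adjusted p = 0.00571), but by 1.80 with edgeR and with DESeq2, neither of which called it (adjusted p = 0.142 with edgeR and 0.0769 with DESeq2). Lce3e, a late cornified envelope gene, differed by 2.91 (SE 0.56, limma adjusted p = 0.000627). Crct1, for a cysteine-rich protein, and Sprr3, for a small proline-rich protein of oral epithelium, differed by 2.46 and 2.44 (limma adjusted p = 0.00271 and 0.00394). Their relative Sprr1b differed by 0.50 and was not called (limma adjusted p = 0.581). Against sham, limma called 8 higher with Cur/ZNP gel, 9 with ZNP gel and 7 with Cur gel. Of all genes tested, limma called 20.2%, 16.7% and 18.9% higher in these 3 comparisons and 18.8% in EP. For the list, edgeR called 5 higher with Cur/ZNP gel, 6 with ZNP gel, 6 with Cur gel and 6 in EP, and DESeq2 called 8, 7, 7 and 7. Without the 3 libraries rich in nasal gland reads 8 were again higher in EP, and with any 1 rat left out 6 to 9. With 2 groups fitted alone the count was 6 with Cur/ZNP gel, 4 with ZNP gel, 4 with Cur gel and 2 in EP. Without sham 4 it was 6 with Cur/ZNP gel, 7 with ZNP gel, 6 with Cur gel and 6 in EP, and Sprr1b was then lower with Cur/ZNP gel.

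These precursors sit with Lor, Ivl and Sprr1a in the epidermal differentiation complex. The span taken for it here ran from Lor to the last listed family gene, chr2:191984773-193783761 of Rnor_6.0. Its ends were set by that list and need not be those of the complex. Of 45 genes inside this span 37 were tested, and 25 of them, or 67.6%, were higher in EP than in sham, with 0 lower and a median log2 difference of 2.003. The share of all genes called higher was 18.8%. Against sham, 23 were higher with Cur/ZNP gel, 27 with ZNP gel and 22 with Cur gel, and 0 were lower in any of the 3. The 15 genes named in the precursor list, with Lor, Ivl and Sprr1a, gave 10 of these in EP, and the other 22 genes, most of them known only by a locus name, gave 15. Sprr1a and Sprr1b, which lie on either side of Sprr3, were among the genes not called. Near-identical copies are common in this cluster, reads shared between them may have been split by the counting, and neighbours are no independent points. With no filter 23 genes were higher in EP, without the 3 libraries rich in nasal gland reads 22, with any 1 rat left out 17 to 27, and with the EP and sham groups fitted alone 6. With each gel group and sham fitted alone, 18 were higher with Cur/ZNP gel, 14 with ZNP gel and 10 with Cur gel, and without sham 4 the numbers were 19, 22 and 17. In the 6 comparisons without sham, limma called 0 of the 37.

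**Figure D4:**
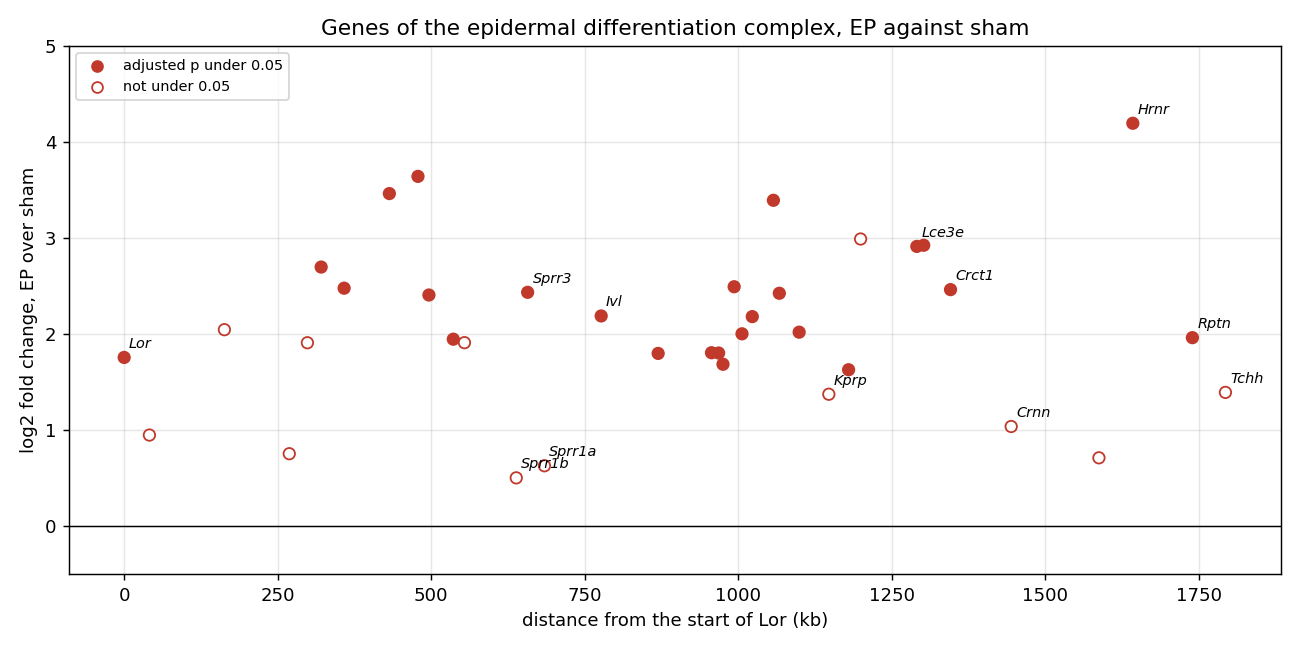
Log2 fold change of EP over sham for the 37 tested genes of the epidermal differentiation complex, by distance from the start of Lor in kilobases, with some genes named. All points lie above 0, and the 25 filled points had an adjusted p under 0.05 from limma.

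In the lists for other steps, few genes passed the test. Of 8 cross-linking and anchoring partners, limma called 0 against sham in EP, with ZNP gel or with Cur gel. In EP 1 of the 8 had an unadjusted p under 0.05, edgeR called 0 and DESeq2 called 1 lower. The smallest p-values in EP belonged to Krtdap (-1.02), Lypd3 (-0.56), Tgm5 (-0.87) and Dmkn (0.58), with adjusted p-values of 0.0678 to 0.351. Without sham 4, Krtdap (-1.48, limma adjusted p = 0.00442) and Lypd3 (-1.15, limma adjusted p = 0.00423) were called lower in EP. Dmkn, which encodes dermokine, was called higher with Cur/ZNP gel (1.25, limma adjusted p = 0.0418), but not without sham 4 (limma adjusted p = 0.149). With Cur/ZNP gel edgeR called 0 of the list higher and 1 lower, and DESeq2 0 higher and 2 lower. Of 10 genes for corneodesmosomes and their proteases, limma called 1 with Cur/ZNP gel and 2 with ZNP gel against sham, all higher, and 0 with Cur gel and in EP. In EP 1 had an unadjusted p under 0.05, and edgeR and DESeq2 called 0. Casp14, the caspase of cornification, was called with ZNP gel (1.84, limma adjusted p = 0.00876) and Cur/ZNP gel (1.81, limma adjusted p = 0.00711), and in EP differed by 1.11 (limma adjusted p = 0.0841). The other call was Blmh, a protease that degrades filaggrin, with ZNP gel, and was singled out after its value was seen. Without sham 4 Blmh was not called (limma adjusted p = 0.124), Casp14 kept both calls, and 1 other gene of the list, Prss8, was higher in EP.

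Among the lipid envelope enzymes, Smpd1, for acid sphingomyelinase, was called higher in EP (0.58, limma adjusted p = 0.00938). Pnpla1, for the enzyme that makes acylceramide, differed by 1.55 in EP (limma adjusted p = 0.0509) and was called higher in all 3 gel groups. Cers3, for a ceramide synthase, differed by -0.82 and was not called (limma adjusted p = 0.158). Of 12 transcription factors of keratinocyte differentiation, limma called 1 higher and 1 lower with Cur/ZNP gel, 0 with ZNP gel, 1 lower with Cur gel and 0 in EP. In EP edgeR and DESeq2 also called 0, and 0 had an unadjusted p under 0.05. Those with the smallest p in EP were Grhl1 (0.81), Prdm1 (0.39), Gata3 (-0.76) and Elf3 (1.19), with adjusted p-values of 0.107 to 0.318. Prdm1 was the one called higher with Cur/ZNP gel and Gata3 the one called lower, at adjusted p-values of 0.0455 and 0.0499 from limma. Without sham 4 neither was called (limma adjusted p = 0.0775 and 0.129).

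**Figure D5:**
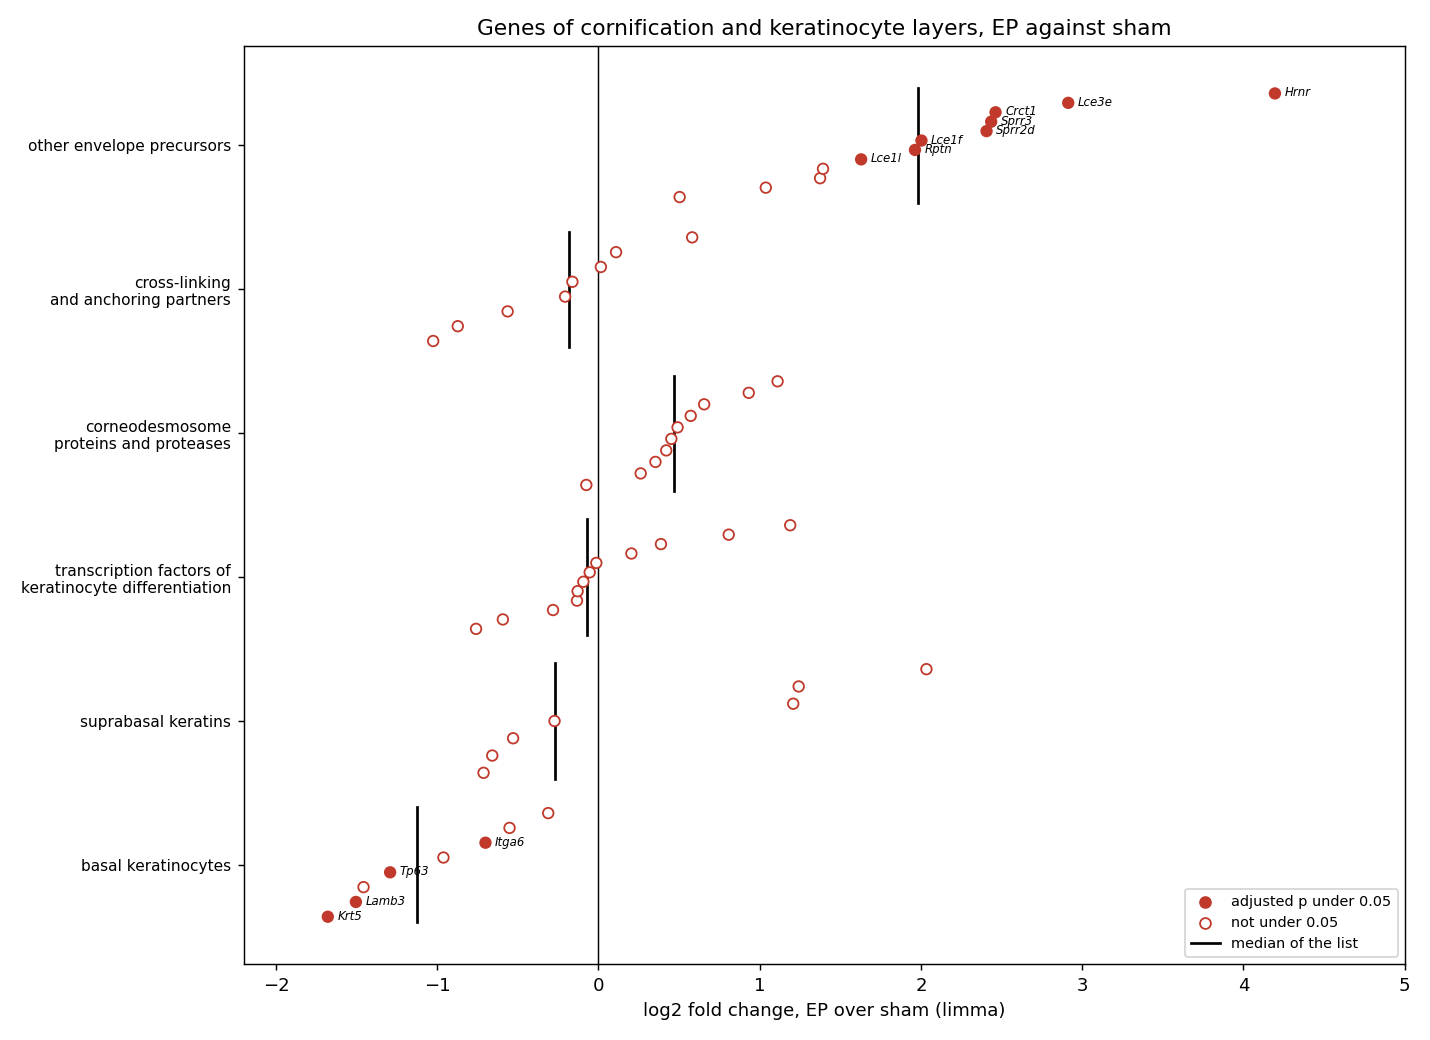
Log2 fold change of EP over sham for each tested gene of 6 lists, with filled points where the limma adjusted p was under 0.05 and a line at each list's median. Filled points are found among the other envelope precursors, all above 0, and among the basal keratinocyte markers, all below 0.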

How the data were processed

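Gingival RNA of 25 rats was extracted with TRIzol and sequenced as stranded total RNA libraries after removal of ribosomal RNA. The authors deposited 1 table of normalized counts per Ensembl transcript (Rnor_6.0), a signal in which reads had been divided by 1 size factor per library; the submitters' processing notes name DESeq2, and the aligner and counter are not given in the sources used here. Whole reads were recovered from the deposited values to within 0.01 of a whole number for count tests. Of 41078 transcripts, 396 had no symbol, and 840 blank lines were left out. Transcripts were summed to 30547 genes by symbol and chromosome, and 16092 genes remained after a filter on low values (CPM of 2 or more in any 1 library).

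Groups were compared with limma 3.58.1 (R 4.3.3; robust variance trend) on log2(normalized count + 1), 2-sided, with all 25 libraries in 1 model of 5 groups and no replicate block, Benjamini-Hochberg adjustment over all genes kept and a threshold of 0.05. Fold changes are on this scale, and those of low genes depend on the added 1. For Ivl and Hrnr in EP they were larger than with edgeR. The rats of a group were taken as separate animals. Only the limma test was tried on simulated counts. These had the same setting of spread for every gene and no outlying library such as sham 4. Alternatives were DESeq2 1.42.0 and, with TMM normalization, edgeR 4.0.16, both on the recovered reads, pseudocounts of 0.5 and 10, no filter, edgeR's filterByExpr, the 2 groups alone, a replicate block, the strongest transcript of each gene, and leaving out libraries. Rat numbers are shared between groups. The median correlation of the deviations of libraries with the same number was -0.20 to 0.08, with single pairs from -0.392 to 0.506. No pairing by number was seen in these values.

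Named genes were the members, up to 4 tested genes per pathway list with the smallest p between EP and sham, and the 8 genes most like the members; keratin and other marker genes come from whole lists. The counts of the lists of lipid envelope enzymes and leukocytes, those of transcription factors without sham 4, and some genes of these lists are not reported here. The members and lists were chosen with earlier results of these data known, and the alternatives on lists and on the gene complex were added after the data were seen. Promoter windows are from RefSeq and were matched by symbol, Lor under the name Loricrin.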

Additional observations from a re-analysis of the deposited data

Results flagged for a closer look

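A library stood far from the other 4 of its group in 7 of 40 sets of 5 values, 8 genes by 5 groups. This was by Dixon's criterion on log2(normalized count + 1), a gap to the nearest library of over 0.71 of the group's range. Chance flags about 1 in 20 groups, and the 8 genes of a library are not independent. In sham 4, Tgm1 was at 522.4, Tgm3 at 3171 and Evpl at 2124 normalized counts, each far below the other sham libraries. In Cur/ZNP gel 2, Tgm3 was at 23182, Ppl at 20273 and Sprr1a at 8739 normalized counts, each far below the other Cur/ZNP gel libraries. In EP 4, Ivl was at 11.7 normalized counts, below the other EP libraries. Sham 4 and EP 4 were rich in nasal gland reads, at 22.2% and 20.9% of all reads, and Cur/ZNP gel 2 was not, at 0.107%. The part of these reads in the low values was not tested.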

How the results depend on the processing

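Members called in EP against sham numbered 2, and 1 with a pseudocount of 10, with no filter, with filterByExpr or with edgeR, 0 with the 2 groups alone, and 4 without the 3 libraries rich in nasal gland reads. With any 1 rat left out the number was 0 to 4, with 0 without EP 1 or EP 5, 1 (Evpl, lower) without sham 4, 1 without sham 3 or EP 2, and 4 without sham 2. With the 2 groups alone it was 1 with Cur gel, 1 with ZNP gel and 2 with Cur/ZNP gel, against 3, 4 and 4. With 1 rat left out it ranged over 2 to 4, 2 to 5 and 3 to 4 in these 3 comparisons. With the replicate block the counts were 2 in EP, 3 with Cur gel, 4 with ZNP gel and 4 with Cur/ZNP gel, as without it. The share of all genes called under each alternative is not given here. Differences of members not called turned in sign under some alternatives, and 2 of these members were called under some. Evpl was lower with Cur gel without the 3 libraries (-0.75, limma adjusted p = 0.0368) and in EP without sham 4, and Sprr1a was higher with ZNP gel without sham 2 (1.41, limma adjusted p = 0.0357). Without the 3 libraries, the log2 difference of Tgm1 over sham was -0.0349 in EP, -0.27 with Cur gel, -0.0849 with ZNP gel and -0.0379 with Cur/ZNP gel, that of Tgm3 -0.20, -0.0731 and -0.12 in the 3 gel groups, and that of Evpl -0.57 with ZNP gel and -0.46 with Cur/ZNP gel. For Tgm1 in EP edgeR gave -0.0441 and DESeq2 -0.0563, and for Tgm3 in EP DESeq2 gave -0.00255. For Evpl, edgeR and DESeq2 gave -0.30 and -0.32 with ZNP gel, and -0.16 and -0.16 with Cur/ZNP gel. With 1 rat left out, Tgm1 ranged over -0.46 to 0.50 in EP, -0.27 to 0.70 with Cur gel, -0.0849 to 0.88 with ZNP gel and -0.0379 to 0.92 with Cur/ZNP gel. Tgm3 ranged over -0.51 to 0.56, -0.20 to 0.87, -0.0731 to 0.99 and -0.12 to 0.94 in the same order. Evpl ranged over -0.90 to 0.0862, -0.75 to 0.24, -0.57 to 0.42 and -0.46 to 0.52, and Sprr1a over -0.0793 to 1.03 in EP. The cause was not tested. No direction of Lor, Ivl, Ppl or Cnfn over sham turned under these alternatives.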

Other observations

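The suprabasal keratins divided into 2 kinds, a split made after the values were seen. Krt4, Krt13 and Krt78, keratins of the lining epithelia of mouth and esophagus, were higher with Cur/ZNP gel than in sham, by 3.21 (limma adjusted p = 0.00391), 2.33 (limma adjusted p = 0.00504) and 1.91 (limma adjusted p = 0.0108) on the log2 scale. They were also higher with ZNP gel, by 2.98, 2.10 and 1.64, and Krt4 was higher with Cur gel, by 2.29. In EP the 3 differed by 2.03, 1.24 and 1.21 and limma called 0 of them, with adjusted p-values of 0.0515, 0.112 and 0.0952, whereas DESeq2 called Krt78 higher (adjusted p = 0.0389) and edgeR called 0. Krt1, Krt2, Krt10 and Krt76, keratins of cornifying epidermis and hard palate, differed from sham by -1.31 to -0.08 in the 4 comparisons and were not called with limma, at adjusted p-values of 0.243 or more. With Cur/ZNP gel DESeq2 called Krt2 lower (-2.03, adjusted p = 0.0209), and without sham 4 limma called Krt1 (-1.84, adjusted p = 0.00879) and Krt76 (-2.01, adjusted p = 0.0397) lower. Without sham 4 the calls of Krt78 with ZNP gel and of Krt4 with Cur gel were lost, at adjusted p-values of 0.0977 and 0.0726 from limma. Krt4 ranged over 164149 to 645626 normalized counts in Cur/ZNP gel libraries, against 3915 to 217293 in sham libraries, with overlap. Krt10 ranged over 32638 to 97372 in Cur/ZNP gel libraries, against 9425 to 225271 in sham libraries. The difference between the 2 kinds of keratin was not tested.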
